A study of Mus musculus with 6 samples.

Results

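The genes described here are 9 genes of the phosphoinositide 3-kinase (PI3K) and mTOR pathway: the adaptors Irs2 and Pik3ap1, the PI3K subunits Pik3cd, Pik3cg, Pik3r1 and Pik3r5, the lipid phosphatase Inpp5d, and Rptor and Rictor, which each define 1 of the 2 mTOR complexes. They were chosen by gene symbol from a table of 55401 genes, each matched 1 row, and all 9 passed the filter on low counts that left 18277 genes for testing. RNA was measured by poly(A)-selected RNA-seq in F4/80+ cells, isolated by a surface protein used to mark mouse macrophages, from liver tumours grown for 14 days from injected Hepa 1-6, which is a hepatoma line of the mouse. The Sms_OE group had tumours of Hepa 1-6 cells that carried lentiviral overexpression of Sms, the gene of spermine synthase (3 libraries), and the control group had tumours of control Hepa 1-6 cells (3 libraries). The overexpression was in the injected cells and not in the F4/80+ cells. Neither group had a further treatment. Sms itself stood at 32.9, 33.2 and 33.2 CPM in Sms_OE, against 26.0, 28.3 and 26.2 CPM in controls (log2 fold change 0.30 ± 0.094 SE, adjusted p = 0.0382 by edgeR), which bears on the sorted cells and any tumour RNA among them, and so checks the label of the injected cells only indirectly. CPM, counts scaled to depth with TMM factors, are the unit of every level here. The mouse strain, age and sex, the vector carried by the control cells and the number of clones or animals behind each library could not be taken from the labels. The p-values therefore reflect only how far these libraries spread, which may be technical.

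As background, class I PI3K makes the membrane lipid PIP3 after a receptor is engaged, and PIP3 recruits the kinases PDK1 (encoded by Pdpk1) and Akt. Adaptors such as Irs2 and Pik3ap1 carry phosphorylated tyrosines that bind the regulatory subunit and bring the enzyme to the receptor. PI3K-delta and PI3K-gamma are the forms that predominate in leukocytes, Inpp5d removes a phosphate from PIP3, and mTOR acts in one complex with Raptor on growth and protein synthesis and in another with Rictor on Akt. In macrophages the pathway is known for its part in responses to growth factors, chemokines and activating stimuli. Only RNA was measured here, so the values say nothing of lipid levels, phosphorylation or kinase activity.

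Of the 9 genes, 6 rose in Sms_OE and none fell: Irs2, Pik3ap1, Rictor, Pik3r5, Pik3cg and Inpp5d, by 1.24-fold to 1.89-fold. For Pik3cd, Pik3r1 and Rptor the groups overlapped and no difference passed the test. The threshold was an adjusted p under 0.05 in edgeR's quasi-likelihood test. Among all 18277 genes tested, 26.9% were called, 12.5% higher and 14.3% lower. The same 6 genes had every Sms_OE library above every control library, which held for 20.8% of genes tested, and the reverse for 23.3%. The median log2 fold change (Sms_OE minus control) was 0.41 over the 9 genes and -0.0006 over all genes tested. All 9 genes are among the 4566 genes (25%) with the longest transcripts, from 4.31 kb upward, where 26.3% of genes were called higher and 7.25% lower and the median log2 fold change was 0.19. With offsets fitted for transcript length and GC content in each library, 5 of the 9 were called higher, all but Inpp5d, and none lower, against 11.4% higher and 9.67% lower among all genes.

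The promoters of the 9 genes were searched on both strands for 4 short motifs, in windows from 250 bases before to 50 bases after each RefSeq start site (GRCm38.p6). The full cyclic AMP response element, TGACGTCA, and the AP-1 site, TGACTCA, were in none of the 9, and in 2.03% and 5.95% of all genes with a window. The forkhead core GTAAACA was in 1 (Pik3cg, 1 of its windows), and in 4.05% of all genes. The core GAGGAAG, which the myeloid factor PU.1 and other ETS factors can bind, was in 3 of the 9 and in 15.4% of all genes. No motif searched overlapped another. The windows with GAGGAAG belong to 3 of the genes that rose, and 1 for each is shown with the motif, or its reverse complement CTTCCTC, in capitals; a match describes letters and is not evidence of binding. They are, on their own strands, chr19:41385053-41385352 (minus) for Pik3ap1, chr12:32208610-32208909 (minus) for Pik3cg, and chr1:87620062-87620361 (plus) for Inpp5d.
Pik3ap1: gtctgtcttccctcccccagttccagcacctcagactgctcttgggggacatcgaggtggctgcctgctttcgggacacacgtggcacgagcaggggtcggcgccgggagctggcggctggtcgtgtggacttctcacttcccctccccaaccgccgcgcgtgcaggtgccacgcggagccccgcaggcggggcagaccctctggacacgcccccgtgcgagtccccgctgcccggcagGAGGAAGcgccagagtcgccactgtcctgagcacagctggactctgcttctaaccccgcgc
Pik3cg: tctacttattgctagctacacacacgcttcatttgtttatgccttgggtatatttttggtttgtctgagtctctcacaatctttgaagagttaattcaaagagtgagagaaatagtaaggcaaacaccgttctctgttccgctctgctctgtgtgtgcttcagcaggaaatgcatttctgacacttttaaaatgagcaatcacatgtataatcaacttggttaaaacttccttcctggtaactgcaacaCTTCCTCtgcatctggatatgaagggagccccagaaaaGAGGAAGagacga
Inpp5d: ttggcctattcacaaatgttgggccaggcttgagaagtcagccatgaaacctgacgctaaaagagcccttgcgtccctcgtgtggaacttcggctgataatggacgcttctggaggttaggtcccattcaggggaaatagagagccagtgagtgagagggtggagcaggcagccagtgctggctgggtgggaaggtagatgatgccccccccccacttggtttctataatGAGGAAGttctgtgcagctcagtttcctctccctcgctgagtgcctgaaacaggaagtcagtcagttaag
In Pik3ap1 the motif starts 11 bases and in Inpp5d 20 bases before the start site, and in the Pik3cg window shown it occurs on each strand, starting 1 base before and 37 bases after. The window of the other RefSeq start of Pik3cg, chr12:32208421-32208720, overlaps the one shown and holds the same pair of matches, at -190 and -152 bases from that start. Irs2, Rictor and Pik3r5, which also rose, had none of the 4 motifs in these windows, nor had Pik3cd, Pik3r1 and Rptor.

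Libraries held 49833764 to 58154006 estimated counts, and Sms_OE replicates 2 and 3 stood apart in erythroid RNA: the erythroid markers (haemoglobin and related genes) summed to 5044 and 5006 CPM there, 216 CPM in Sms_OE replicate 1 and 43.2 to 189 CPM in controls. Without those 2 libraries, an alternative chosen after seeing the data, 5 of the 9 genes were called higher and none lower (all but Inpp5d), against 3.39% of genes called higher and 3.41% lower. Macrophage markers summed to 6039 to 7144 CPM in Sms_OE and 6252 to 6419 CPM in controls, with 1 of 10 called higher and 3 lower. Adgre1, the gene of F4/80, averaged 569.9 CPM in Sms_OE and 448.8 CPM in controls (adjusted p = 0.16 by edgeR, not called). Kupffer cell markers, of the liver's resident macrophages, summed to 331 to 446 CPM in Sms_OE and 134 to 153 CPM in controls, with 6 of 6 called higher. Hepatocyte and hepatoma markers summed to 728 to 994 CPM in Sms_OE and 1055 to 1353 CPM in controls (7 of 10 lower), and dendritic cell markers to 49.2 to 57.3 CPM in Sms_OE and 70.0 to 86.2 CPM in controls (1 of 7 higher and 3 lower). B cell markers, of a cell type that also uses Pik3ap1 and Pik3cd, summed to 23.4 to 34.0 CPM in Sms_OE and 25.7 to 27.9 CPM in controls, and none of 6 was called. T and NK cell markers summed to 247 to 400 CPM in Sms_OE and 216 to 339 CPM in controls (1 of 8 higher). Neutrophil markers summed to 2206 to 4018 CPM in Sms_OE and 3192 to 6016 CPM in controls (2 of 7 higher). Those 2 averaged 12.4 and 3.35 CPM in Sms_OE, and 3.87 and 1.17 CPM in controls. The other neutrophil markers were not called, with log2 fold changes from -0.74 to -0.34. Endothelial markers summed to 116 to 153 CPM in Sms_OE and 141 to 157 CPM in controls (1 of 6 higher and 3 lower), and fibroblast markers to 108 to 149 CPM in Sms_OE and 76.8 to 95.5 CPM in controls (2 of 6 higher). The mitochondrial share of counts was 3.12, 2.42 and 2.15% in the Sms_OE libraries, against 4.99, 5.78 and 7.13% in the control libraries, with no overlap. No marker was at 0 in every library. With all 6 libraries, 12.5% of all genes tested were called higher and 14.3% lower, the background for these marker counts. The part of these shifts in the rises of the 6 genes was not tested. In bulk RNA, a change in the mix of cells and a change in RNA per cell cannot be told apart.

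**Figure D1:**
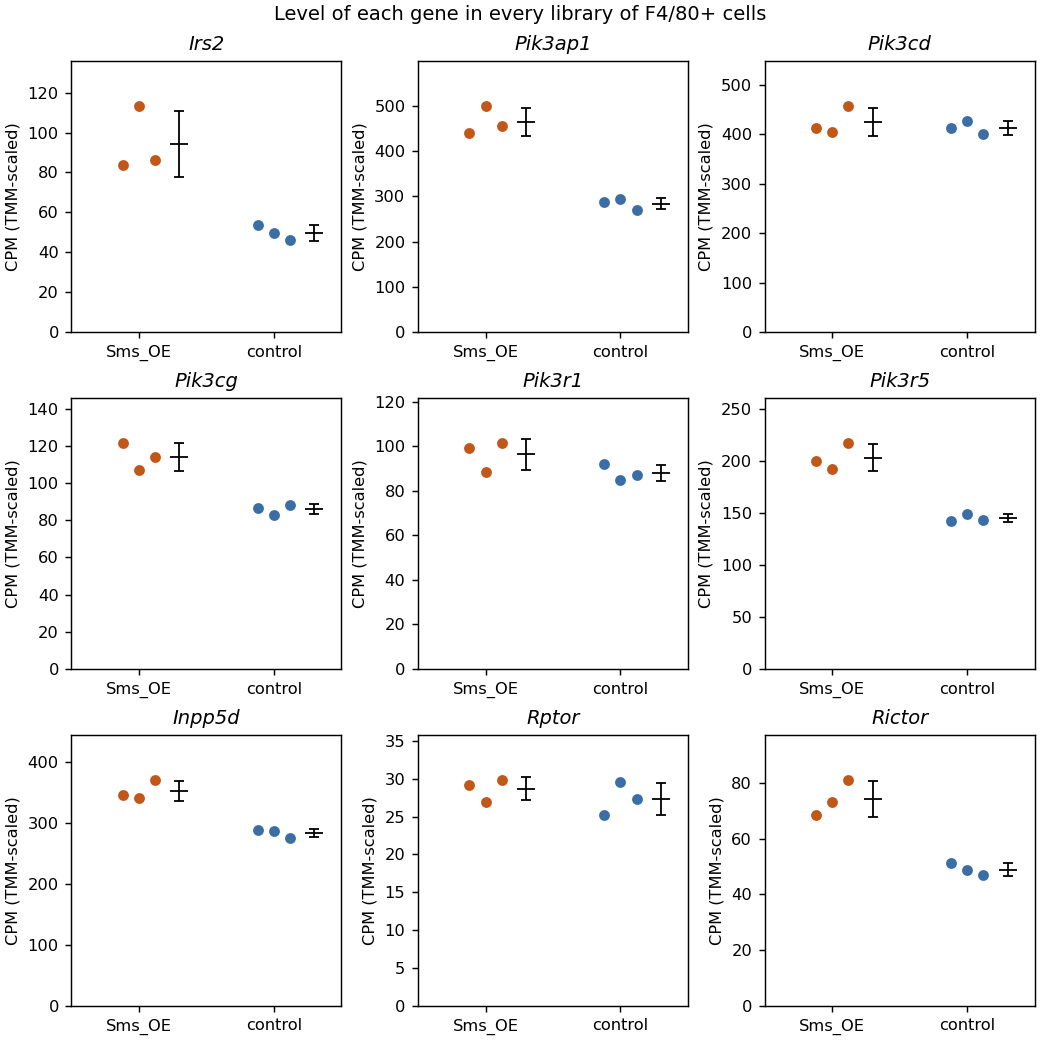
CPM (counts scaled to library size with TMM factors) of the 9 genes in each library. Points are libraries, the Sms_OE group left of the control group, and bars give the mean ± SD of 3 libraries. The points are apart for Irs2, Pik3ap1, Pik3cg, Pik3r5, Inpp5d and Rictor, and overlap for Pik3cd, Pik3r1 and Rptor.

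Irs2 encodes insulin receptor substrate 2, which links the insulin and IGF1 receptors to PI3K. The gene lies on chromosome 8, 10984681 to 11008458, minus strand (ENSMUSG00000038894; GRCm38, as are all positions here). It stood at 83.6, 113 and 86.1 CPM in the Sms_OE libraries, against 53.6, 49.7 and 46.0 CPM in the control libraries. Every Sms_OE library was higher, and Sms_OE replicate 2 was the highest of the 6. The means were 94.3 ± 16 CPM in Sms_OE and 49.8 ± 3.8 CPM in controls (SD, n = 3 each). The log2 fold change was 0.92 ± 0.12 (SE), a 1.89-fold rise with a 95% interval from 1.57-fold to 2.29-fold and an adjusted p of 0.000928 (edgeR). It was the largest log2 fold change of the 9 in this fit. Leaving out 1 library at a time gave 0.76 to 1.00. The length and GC offsets gave 0.64 for Irs2, below the 0.67 of Pik3ap1.

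Pik3ap1 encodes BCAP, an adaptor of B cells and myeloid cells that binds PI3K and is also known to act downstream of Toll-like receptors. It lies on chromosome 19, 41272377 to 41385102, minus strand (ENSMUSG00000025017). Its level was 440, 498 and 454 CPM in Sms_OE libraries, against 287, 293 and 270 CPM in controls. The gap between the lowest Sms_OE and the highest control library was 147 CPM. Pik3ap1 averaged 464 ± 31 CPM in Sms_OE and 283 ± 12 CPM in controls (SD, n = 3 each), with a log2 fold change of 0.71 ± 0.092 (SE; 1.64-fold, 95% interval 1.42 to 1.89, adjusted p = 0.000757 by edgeR). This was the smallest p of the 9 genes. The offsets for length and GC left its log2 fold change at 0.67.

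Pik3cg and Pik3r5, whose products form PI3K-gamma, rose. Pik3cg, its catalytic subunit, which acts downstream of G protein-coupled receptors such as those for chemokines, lies on chromosome 12, 32173473 to 32208659, minus strand (ENSMUSG00000020573). It stood at 122, 107 and 114 CPM in Sms_OE, against 86.5, 83.0 and 88.2 CPM in controls, with no overlap. The means were 114 ± 7.3 CPM in Sms_OE and 85.9 ± 2.6 CPM in controls (SD, n = 3 each; log2 fold change 0.41 ± 0.083 SE, 1.33-fold, adjusted p = 0.00592 by edgeR). Pik3r5, the regulatory subunit that couples PI3K-gamma to G protein beta-gamma subunits, lies on chromosome 11, 68432121 to 68497849, plus strand (ENSMUSG00000020901). It stood at 199.9, 193 and 218 CPM in Sms_OE, against 142, 149 and 144 CPM in controls, again with no overlap. Its log2 fold change was 0.49 ± 0.084 (SE; 1.40-fold, 95% interval of the log2 value 0.30 to 0.67, adjusted p = 0.00286 by edgeR). With the length and GC offsets these values were 0.27 for Pik3cg and 0.35 for Pik3r5.

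Pik3r6, the alternative regulatory subunit of PI3K-gamma, is the gene next to Pik3r5 on the same strand, 5169 bases away. It stood at 36.6, 37.4 and 40.7 CPM in Sms_OE, against 42.9, 40.2 and 37.2 CPM in controls. The groups overlapped, and its log2 fold change of -0.07 ± 0.096 (SE, adjusted p = 0.642 by edgeR) had a 95% interval from -0.28 to 0.14. The ratio of Pik3r5 to Pik3r6 counts within a library does not depend on the library scaling. It was 5.47, 5.16 and 5.35 in Sms_OE, against 3.31, 3.72 and 3.86 in controls. The log2 ratio differed by 0.55, and every Sms_OE library was above every control library (two-sided exact permutation test, p = 0.1, adjusted p = 0.12 over 6 ratios). With 3 libraries against 3, 0.1 is the smallest p this test can give. The fitted difference between Pik3r5 and Pik3r6 was 0.56 without and 0.43 with the length and GC offsets.

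For Pik3cd and Pik3r1 the libraries of the 2 groups overlapped, and neither gene was called. Pik3cd, the catalytic subunit of PI3K-delta, which acts mainly downstream of tyrosine kinase-coupled receptors, lies on chromosome 4, 149649168 to 149702571, minus strand (ENSMUSG00000039936). It stood at 413, 404 and 457 CPM in Sms_OE, against 412, 428 and 400.4 CPM in controls. The 2 groups overlapped, and the log2 fold change was 0.04 ± 0.091 (SE, adjusted p = 0.796 by edgeR), with a 95% interval from 0.89-fold to 1.18-fold. Pik3r1, whose protein stabilises the catalytic subunits and holds them inactive until an adaptor binds, lies on chromosome 13, 101680563 to 101768217, minus strand (ENSMUSG00000041417). It stood at 99.2, 88.2 and 101 CPM in Sms_OE, against 92.0, 84.6 and 87.1 CPM in controls (log2 fold change 0.13 ± 0.087 SE, adjusted p = 0.301 by edgeR). Its 95% interval ran from 0.96-fold to 1.25-fold. With the length and GC offsets both values were below 0, at -0.16 for Pik3cd (adjusted p = 0.163) and -0.08 for Pik3r1 (adjusted p = 0.486). Pik3r1 has several start sites that give proteins of different length, which values per gene do not separate.

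Inpp5d encodes SHIP1, a phosphatase of blood cells that turns PIP3 into a bisphosphate lipid, and is the only phosphatase among the 9 genes. It lies on chromosome 1, 87620312 to 87720507, plus strand (ENSMUSG00000026288). Its level was 346, 341 and 371 CPM in Sms_OE, against 288, 287 and 276 CPM in controls. The libraries did not overlap, and the lowest Sms_OE library was 53.3 CPM above the highest control. The log2 fold change was 0.31 ± 0.085 (SE; 1.24-fold, 95% interval 1.09 to 1.42, adjusted p = 0.0218 by edgeR). The call was lost with any 1 control library left out (adjusted p 0.0586, 0.0913 and 0.0861 without control replicates 1, 2 and 3), without Sms_OE replicate 3 (0.0713), without both libraries rich in erythroid RNA (0.149), and once length and GC offsets were fitted (log2 fold change 0.19, adjusted p = 0.104).

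Of the genes that define the mTOR complexes, Rictor rose and Rptor was not called. Rictor, the scaffold of mTORC2, which phosphorylates Akt, lies on chromosome 15, 6708379 to 6800401, plus strand (ENSMUSG00000050310). It stood at 68.4, 73.4 and 81.2 CPM in Sms_OE, against 51.4, 48.7 and 46.8 CPM in controls. All 3 Sms_OE libraries were above all controls, and the log2 fold change was 0.60 ± 0.093 (SE; 1.52-fold, 95% interval 1.32 to 1.75, adjusted p = 0.00168 by edgeR). The offsets gave 0.31 (adjusted p = 0.029), and Rictor has the longest transcript of the 9, at 9.31 kb. Rptor encodes Raptor, which brings substrates to mTORC1, and lies on chromosome 11, 119602905 to 119899576, plus strand (ENSMUSG00000025583). It stood at 29.2, 27.0 and 29.9 CPM in Sms_OE, against 25.2, 29.5 and 27.3 CPM in controls, with the groups intermixed. Its log2 fold change was 0.07 ± 0.10 (SE, adjusted p = 0.679 by edgeR; 95% interval from 0.89-fold to 1.23-fold), and -0.24 under the offsets (adjusted p = 0.117).

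Within each library, Rictor counts were 2.35, 2.72 and 2.72 times the Rptor counts in Sms_OE, against 2.04, 1.65 and 1.71 times in controls. The groups did not overlap, and the log2 ratio was higher by 0.53 in Sms_OE (two-sided exact permutation test, p = 0.1; adjusted p = 0.12). The fitted difference between the 2 genes was 0.53 without and 0.55 with the length and GC offsets. Of the other 4 ratios, that of Pik3cd to Pik3cg was lower in Sms_OE by 0.37 on the log2 scale (3.40, 3.78 and 4.01 in Sms_OE, against 4.77, 5.15 and 4.54 in controls). That of Inpp5d to Pik3cd was higher by 0.28 (0.837, 0.845 and 0.812 in Sms_OE, against 0.698, 0.672 and 0.688 in controls). Both had no overlap and an exact permutation p of 0.1. Each ratio combines the fold changes of its 2 genes, given above, and is not a separate observation. The ratio of Pik3ap1 to Irs2 was lower by 0.20 with the same exact permutation p of 0.1, though the fitted difference was 0.03 with the offsets, and that of Pik3r1 to Pik3cd differed by 0.09 (two-sided exact permutation test, p = 0.4).

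**Figure D2:**
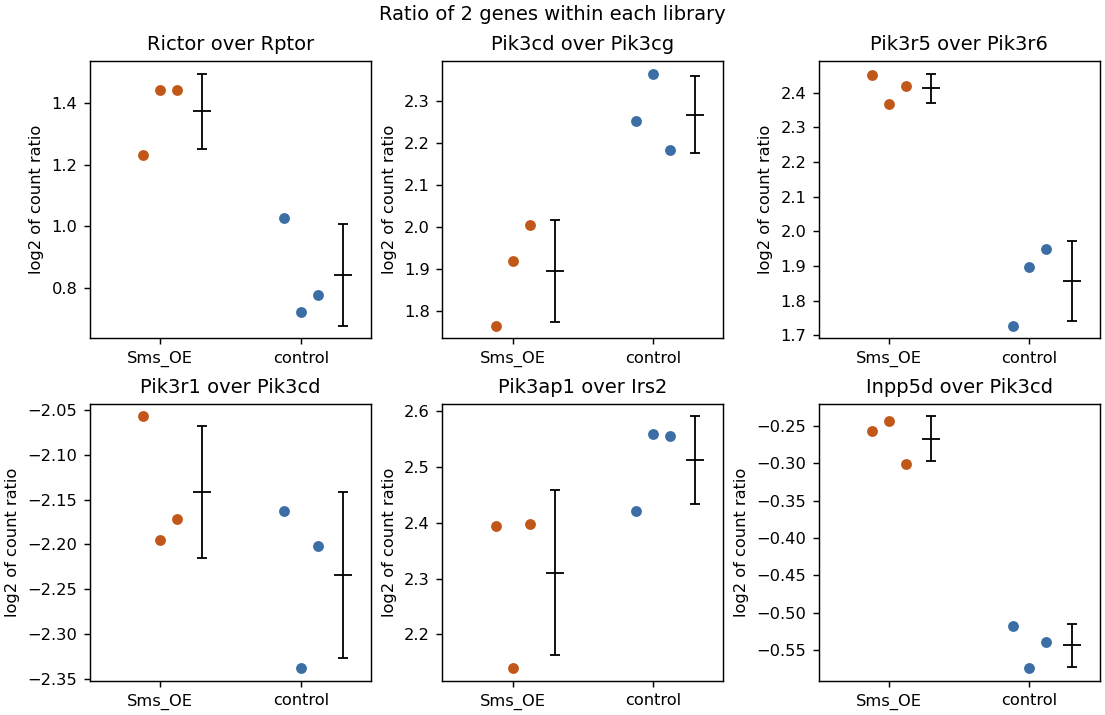
Log2 of the ratio between the counts of a pair of genes in each library, for 6 pairs. Points are libraries, Sms_OE left of control, and bars give the mean ± SD of 3 libraries; vertical axes do not start at 0. The groups are apart for 5 pairs and overlap for Pik3r1 over Pik3cd. How often other gene pairs are apart was not computed. For CPM of single genes, every Sms_OE library was above every control for 20.8% of genes tested and below for 23.3%.

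**Figure D3:**
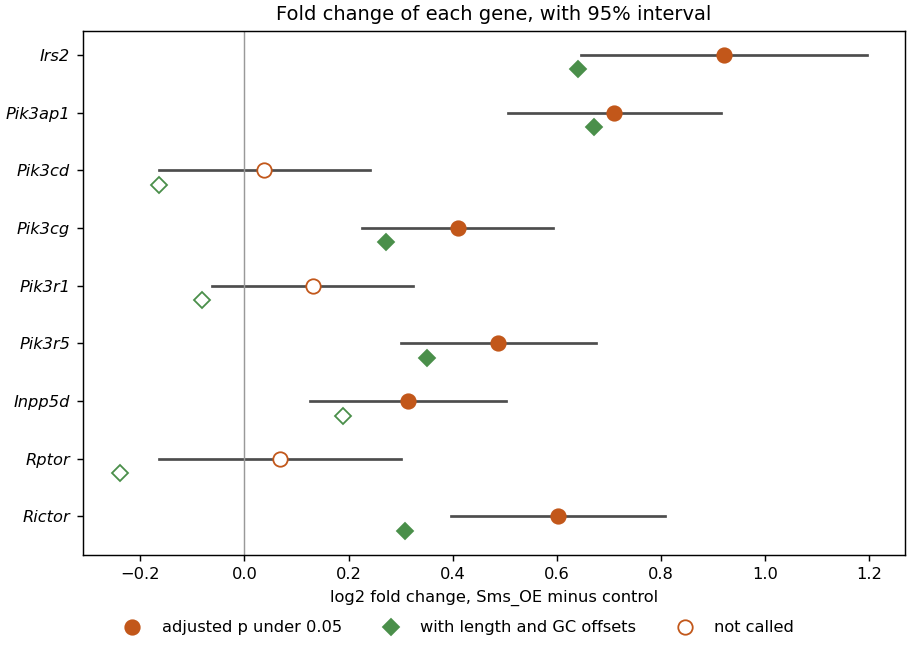
Log2 fold change (Sms_OE minus control) of the 9 genes with its 95% interval (circles and lines) and with offsets for transcript length and GC content (diamonds, no interval drawn). Filled marks passed an adjusted p of 0.05. The 6 filled circles lie between 0.31 and 0.92, and of these Inpp5d is open with the offsets.

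To compare levels between genes, CPM were divided by the length of the longest annotated transcript. In Sms_OE the order was Pik3ap1 (104 ± 6.8 CPM per kb), Pik3cd (86.3 ± 5.8), Inpp5d (71.4 ± 3.2), Pik3r5 (46.5 ± 2.9), Pik3cg (19.4 ± 1.3), Irs2 (14.9 ± 2.6), Pik3r1 (13.5 ± 1.0), Rictor (7.98 ± 0.69) and Rptor (4.35 ± 0.23; SD, n = 3). In controls it was Pik3cd (84.0 ± 2.8 CPM per kb), Pik3ap1 (63.2 ± 2.6), Inpp5d (57.4 ± 1.4), Pik3r5 (33.2 ± 0.89), Pik3cg (14.6 ± 0.44), Pik3r1 (12.4 ± 0.53), Irs2 (7.87 ± 0.60), Rictor (5.26 ± 0.25) and Rptor (4.15 ± 0.33). Pik3ap1 was thus above Pik3cd in Sms_OE and below it in controls, with no overlap of libraries in either group. Among neighbours in these orders, only Irs2 and Pik3r1 in Sms_OE overlapped, at 13.2 to 17.9 and 12.4 to 14.3 CPM per kb. With the length of all exons in place of the longest transcript, Irs2 (14.9 CPM per kb) was above Pik3cg (13.5) in Sms_OE, and the rest of both orders was as given.

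Among the 4 class I catalytic subunit genes, Pik3cd made up 72.4 ± 1.2% of the summed level per kb in Sms_OE and 76.5 ± 0.51% in controls (SD, n = 3 each). Pik3cg made up 16.3 ± 1.2% in Sms_OE and 13.3 ± 0.75% in controls. The broadly expressed Pik3ca and Pik3cb held 4.59 ± 0.28% and 6.72 ± 0.49% in Sms_OE, and 4.00 ± 0.025% and 6.15 ± 0.22% in controls. Of the 5 regulatory subunit genes, Pik3r5 held 59.7 ± 1.1% in Sms_OE and 50.9 ± 1.6% in controls. Pik3r1 held 17.4 ± 0.48% in Sms_OE and 19.0 ± 0.94% in controls, and Pik3r6 held 15.2 ± 0.65% in Sms_OE and 19.0 ± 0.91% in controls. In both groups the leukocyte forms Pik3cd, Pik3cg and Pik3r5 had the largest shares of their kind or, for Pik3cg, the second largest. Pik3r2 held 7.62 ± 1.4% in Sms_OE and 10.9 ± 0.84% in controls. The shares of Pik3cb and Pik3r3 overlapped between the groups and those of the other 7 genes did not, by the least for Pik3r1 (17.8% at most in Sms_OE and 17.9% at least in controls). In CPM, Pik3cd, Pik3r1, Pik3r2 and Pik3r6 did overlap. Shares within a pool depend on each other, since a higher share of one gene lowers those of the rest. Shares were not tested, and how often they are apart among other genes was not computed. For CPM of single genes, every Sms_OE library was above every control for 20.8% of genes tested and below for 23.3%.

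**Figure D4:**
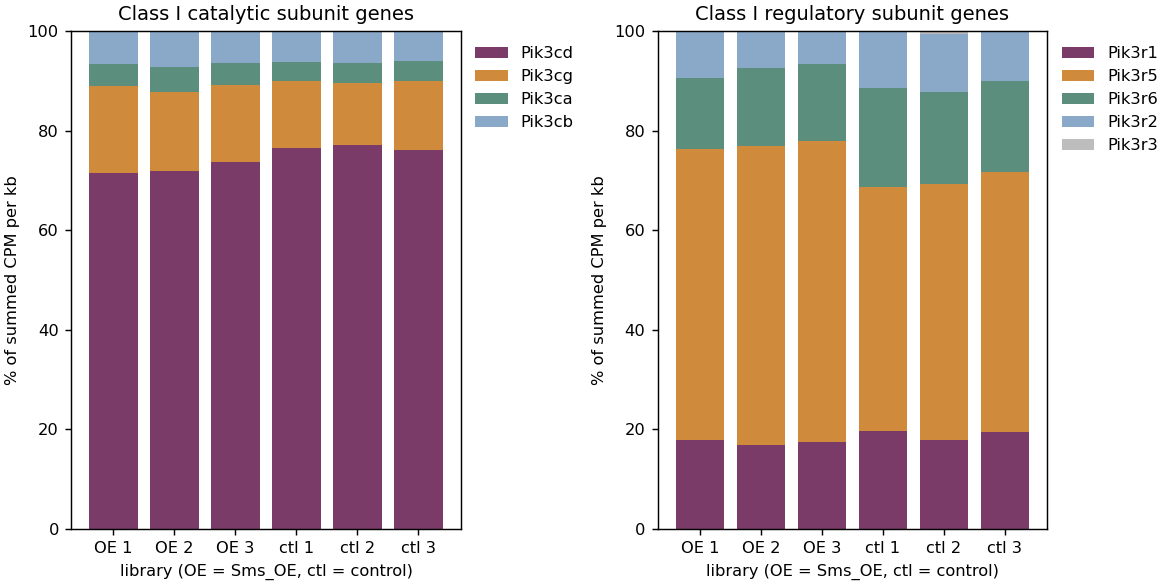
Share of each class I PI3K subunit gene in the summed CPM per kb of its kind, by library, for 4 catalytic and 5 regulatory genes. The 3 Sms_OE bars stand left of the 3 control bars; Pik3cd holds 71.5 to 73.8% of the catalytic pool in Sms_OE and 76.0 to 77.0% in controls, and Pik3r5 holds 58.4 to 60.7% of the regulatory pool in Sms_OE and 49.1 to 52.2% in controls.

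Other genes of the pathway, 73 in 8 lists by role, moved in both directions: 15 rose and 8 fell, with a median log2 fold change of 0.04, beside 12.5% higher and 14.3% lower among all genes tested. With the length and GC offsets 9 of the 73 were higher and 7 lower, beside 11.4% and 9.67% of all genes, shares near the background. Without the 2 libraries rich in erythroid RNA, with 1 Sms_OE library left, fewer were called in each direction. Upstream of PI3K, 4 of 6 receptor and adaptor genes rose and none fell. Igf1r, the IGF1 receptor, averaged 131 ± 6.8 CPM in Sms_OE and 73.6 ± 4.0 CPM in controls (SD, n = 3 each; log2 fold change 0.83 ± 0.084 SE, adjusted p = 0.000274 by edgeR). The insulin receptor, Insr, averaged 39.7 ± 1.0 CPM in Sms_OE and 26.1 ± 1.7 CPM in controls (log2 0.61 ± 0.096 SE, adjusted p = 0.00185 by edgeR). Gab1, a docking protein that binds the regulatory subunit, averaged 13.1 ± 2.9 CPM in Sms_OE and 3.59 ± 0.56 CPM in controls (log2 1.86 ± 0.21 SE, adjusted p = 0.000441 by edgeR), and its relative Gab2 rose by a log2 fold change of 0.44. With the length and GC offsets these 4 genes were still called, with smaller log2 fold changes of 0.46 for Igf1r, 0.31 for Insr (adjusted p = 0.035), 1.76 for Gab1 and 0.27 for Gab2. Irs1, the relative of Irs2, stood at 5.74 ± 1.8 CPM in Sms_OE and 5.53 ± 1.4 CPM in controls and was not called (log2 0.05 ± 0.27 SE), nor was Gab3 (log2 0.57, adjusted p = 0.0723 by edgeR), which was called higher with the offsets (0.80, adjusted p = 0.023).

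Among the other class I subunits only Pik3ca of 5 passed the test (log2 fold change 0.32, adjusted p = 0.0261 by edgeR; 0.05 with the offsets, adjusted p = 0.725), and of 4 class II and III genes only Pik3c2a (0.45, and 0.25 with the offsets, adjusted p = 0.0655). Of 9 other phosphatase genes, 2 rose and none fell: Phlpp1 and Phlpp2, which act on Akt, by log2 fold changes of 0.38 and 0.63, and neither was called with the offsets. Inppl1, the gene of SHIP2, gave -0.27 ± 0.098 (SE) and an adjusted p of 0.0669, and was called lower with the offsets (-0.47, adjusted p = 0.00437).

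Of 11 genes for Akt and kinases and factors around it, 5 rose and none fell. Among all genes tested, 12.5% were higher and 14.3% lower. Sgk1, a kinase activated by mTORC2, averaged 222 ± 7.1 CPM in Sms_OE and 139 ± 3.8 CPM in controls (log2 fold change 0.67 ± 0.080 SE, adjusted p = 0.000539 by edgeR) and kept its call with the offsets (0.80). Pdpk1 (0.38), Gsk3b (0.38) and the FoxO factors Foxo1 (0.53) and Foxo3 (0.54), which Akt holds in the cytoplasm, rose too but were not called with the offsets, where they gave 0.17, 0.12, 0.25 and 0.28. Akt1 gave 0.19 ± 0.10 and Akt2 -0.02 ± 0.077 (log2 fold change ± SE), and neither was called.

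None of the other 9 subunits and assembly factors of the mTOR complexes was called in either direction. Mtor stood at 38.5 ± 0.87 CPM in Sms_OE and 39.2 ± 1.5 CPM in controls (SD, n = 3 each), with a log2 fold change of -0.02 and a 95% interval from -0.22 to 0.17. Of the other subunits particular to mTORC2, Mapkap1 gave -0.09 ± 0.095, Prr5 -0.50 ± 0.39 and Prr5l 0.12 ± 0.13 (log2 fold change ± SE). With the offsets Mtor (-0.37, adjusted p = 0.0175) and Telo2 (-0.61, adjusted p = 0.0477) were called lower.

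Of 21 TSC, Rag and nutrient sensing genes, 6 fell and 1 rose, beside 14.3% lower and 12.5% higher among all genes tested. All 5 Lamtor genes, a group singled out after the values were seen, whose products anchor the Rag GTPases at the lysosome, fell, by log2 fold changes between -0.67 and -0.45. Lamtor3 averaged 36.1 ± 1.4 CPM in Sms_OE and 52.5 ± 2.3 CPM in controls (SD, n = 3 each; adjusted p = 0.00206 by edgeR). These are short transcripts, of 0.668 to 2.73 kb, and with the length and GC offsets only Lamtor3 of the 5 kept its call (-0.37, adjusted p = 0.0125). The sixth gene that fell was Tbc1d7, a subunit of the TSC complex, by a log2 fold change of -0.85 (-0.67 with the offsets, adjusted p = 0.0538). Sesn2, a stress-induced inhibitor of mTORC1, rose by 0.51 (0.41 with the offsets, adjusted p = 0.0101). Rraga was called higher with the offsets (0.47, adjusted p = 0.00718) but not without them (0.17). Of 8 substrates and outputs of mTORC1, Ulk1, a kinase that starts autophagy, rose by 0.71 ± 0.11 (SE, adjusted p = 0.00185 by edgeR), and Eif4e (-0.31) and Rps6 (-0.54) fell. These 3 calls also held with the offsets (0.47, -0.35 and -0.36), where Rps6kb2 was called lower too (-0.51, adjusted p = 0.0162; -0.37 and 0.0573 without them).

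**Figure D5:**
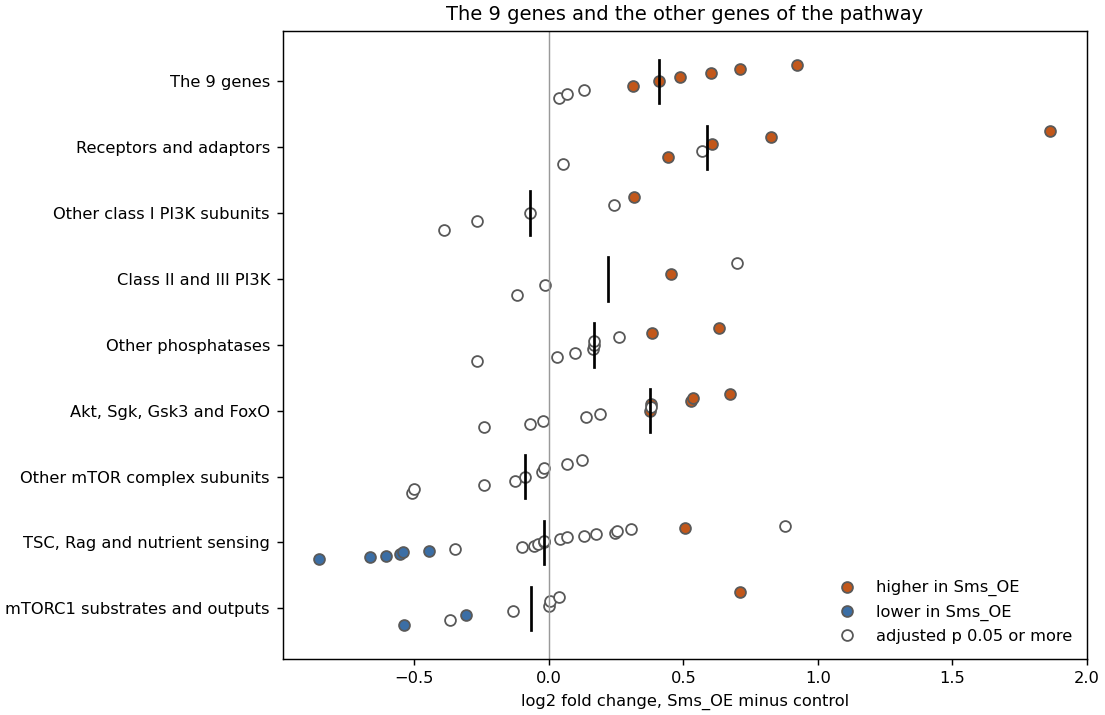
Log2 fold change (Sms_OE minus control) of the 9 genes and of 73 other pathway genes in 8 lists by role. Each point is a gene, filled where the adjusted p was under 0.05, and black lines are list medians. The receptors and adaptors have 4 filled points above 0, while the other mTOR complex subunits have none.

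The genes whose pattern over the 6 libraries was most like that of Pik3ap1, by root mean square distance between centred log2 CPM values among 9672 protein-coding genes with a mean of at least 5 CPM, were Nup98 (0.032), Med13l (0.036) and Mef2d (0.037). Nup98 averaged 146 ± 14 CPM in Sms_OE and 89.4 ± 2.9 CPM in controls (SD, n = 3 each). This distance includes the difference between the 2 groups, and it says nothing of shared function or control.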

How the data were processed

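Per the labels' protocols, libraries were made with oligo(dT) beads and dUTP, and per the submitters' processing notes HISAT2 2.2.1, StringTie 2.1.6, cutadapt 1.9, DESeq2 and FastQC 0.11.9 were used. Values deposited by the authors are estimated counts for each gene, in whole numbers and not normalized. More genes held 4 than 3 or 5 in every library, as coverage turned into counts can give, so their counting error is uncertain. The build, annotation and strand setting were not given in the sources used here. Annotated genes that overlap the 9 held at most 3.42% of the counts of the gene they overlap (Rptoros, antisense to Rptor).

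Symbols, positions and transcript lengths came from GENCODE M21 (GRCm38) by Ensembl identifier, and promoters from RefSeq. Genes were tested with edgeR 4.0.16 (R 4.3.3): filterByExpr, TMM factors, glmQLFit with robust = TRUE, then glmQLFTest, all 18277 p-values being adjusted by the Benjamini-Hochberg method. Intervals are 95% and come from the SE, derived from the F statistic. Offsets came from a smooth of log2 values on transcript length and GC content in each library. Ratios were compared by exact permutation over 20 assignments. Of these steps, only the main edgeR fit was tested on simulated data, in which fewer genes changed than were called here. The offsets and the ratios were not tested in this way. The alternatives were those of the closing section, with DESeq2 1.42.0 and limma 3.58.1 as other tools. All 9 genes and every gene of the short pathway lists could be named, and of longer lists the 5 of smallest p. Beyond this rule, the TSC, Rag and nutrient sensing list also gave the Lamtor genes as a whole group, Tbc1d7 and Rraga. The members, pathway lists and markers were chosen with earlier results of these data known. Protein sequences were not used here.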

Additional observations from a re-analysis of the deposited data

How the results depend on the processing

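Of the 6 rises among the 9 genes, those of Irs2, Pik3ap1, Pik3cg, Pik3r5 and Rictor kept their direction and their call under all 20 settings tried, and Inpp5d lost its call under 8 and kept its direction. The settings were 3 other scalings, 2 other filters, the DESeq2 Wald test, limma-voom, the fit without its robust step, a replicate block, length and GC offsets with and without the block, each library left out, both erythroid-rich libraries left out (chosen after seeing the data; 1 Sms_OE library against 3, assumed to vary like the controls) and thresholds of 0.01 and 0.1. Among the 9 genes 5 or 6 were higher and 0 lower throughout. The 3 genes not called changed sign in places: Pik3cd was -0.16 with the offsets, -0.16 with the offsets and block, -0.0079 without the erythroid-rich libraries and -0.022 to 0.066 with each library left out, below 0 without Sms_OE replicate 3; Pik3r1 was -0.081 with the offsets, with and without the block; Rptor was -0.24 with both. The cause was not tested. Of the pathway lists, 9 genes were higher with the offsets and 4 were lower at a threshold of 0.01. Without the erythroid-rich libraries, where fewer samples were fitted, fewer pathway genes were called in each direction than in the main fit. With each library left out, 11 to 13 were higher and 6 to 9 lower, and with the replicate block 14 higher and 8 lower. Deviations of same-numbered libraries correlated at 0.065, 0.020 and -0.0075, so the number was not taken as pairing. Ratios with each library left out kept their sign, from 0.47 to 0.62 for Rictor over Rptor and from 0.49 to 0.60 for Pik3r5 over Pik3r6. The scalings moved the median of all genes by at most 0.063 on the log2 scale. The smallest count of the 9 genes in any library was 1312 (Rptor), and 3 libraries a group limit the precision.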
